A study of Mus musculus with 8 samples.

Results

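The genes described here are 34 genes of adult neurogenesis and the cell cycle: 4 of neural stem and progenitor cells, 9 of immature neurons, and 21 of the cell cycle (7 for cyclins and Cdk1, 6 for DNA replication, 8 for mitosis and proliferation). They were chosen by name, as the non-control probes whose gene name in the files equals one of the 34, out of 30139 named genes on the array. The array reads them with 55 probes. RNA of whole hippocampus from C57BL/6 mice was measured on Agilent 1-colour arrays. The CKO group carried Ctcf loxP/loxP and Camk2a-Cre, the WT group carried Ctcf loxP/loxP without Cre, and so both groups share the floxed alleles while only CKO mice carry the transgene. Camk2a-Cre acts in excitatory forebrain neurons, so stem cells, dividing cells and most glia are not its target and the tissue holds many cells with an intact gene. Each sample was a pool of 3 mice, with 3 CKO and 3 WT pools. Sex and age went with the pool number and not with genotype. Each pool 1 combined 2 females with 1 male (19 to 23 weeks old), each pool 2 consisted of 3 females (18 to 19 weeks), and each pool 3 of 3 males (15 to 17 weeks). All mice had been through behavioural tests. Both first pools had 2 arrays of the same RNA, which were averaged, so n is 3 pools per genotype on 8 arrays.

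The adult hippocampus keeps a stem cell niche in the subgranular zone of the dentate gyrus. There, radial glia-like stem cells that express Sox2 and Hopx give rise to dividing intermediate progenitors that express Eomes (Tbr2) and Neurog2, and these to neuroblasts that express doublecortin and Sox11 and mature into granule neurons. Progenitors in division use the same cyclins, replication factors and mitotic kinases as any other dividing cell, and microglia and oligodendrocyte precursors also divide in adult tissue. These cells are a small part of the tissue.

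The probes that carry the values below are shown first, because a gene's reading here is the reading of one 60-base probe. The first 30 bases of each are given, 5′ to 3′ and in lower case, as the files list them, with the chromosome of the gene from RefSeq. They belong to the 3 measured genes of smallest unadjusted p in each of the stem cell, immature neuron and cell cycle classes.
Sox2 (chromosome 3): tggcaatcaaatgtccattgtttataagct
Hopx (chromosome 5): ctttggattttaatgaaagatgatgtggga
Neurog2 (chromosome 3): tgcaactggtccctgtgatcttttcacctt
Tubb3 (chromosome 8): ggttgtgtttatattcggggggaggggtat
Sox4, probe used for the gene (chromosome 13): aatcctgtccgtcactgcctgtcaggttgt
Ncam1 (chromosome 9): actttttactgagtgaaacatcaacaccac
Mcm2 (chromosome 6): cccctttagacaaagagcaacttagaagta
Mcm5 (chromosome 8): tggaaatgtactttggtctgttggctcata
Mcm6 (chromosome 1): ctgtggaaattgctttcttctgttcccagc
The other probes of Sox4, Dcx and Mki67 are shown too, since the text compares probes of those genes with each other. They were added after their values were seen.
Sox4, second probe: ttttctgcaatgaagacagaaagaaggctc
Sox4, last probe: tcaagcacatggctgactaccctgactaca
Dcx, probe used for the gene (chromosome X): ataaaaagaaaagcaaaacagagatgtgcg
Dcx, second probe: tcccatgttgtcccaagtattcatttaaga
Dcx, last probe: aactcaacatgaattgatgacaacttggtg
Mki67, probe used for the gene (chromosome 7): atactactgctactgcctgagtttaaggaa
Mki67, second probe: cagtgaacctaagccaagggtaactcgtgg

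A level is the log2 processed signal of a probe minus the 75th percentile of the non-control spots of the same array, so that 0 is the 75th percentile. Differences are CKO minus WT on that log2 scale. Since probes differ in how brightly they bind, levels are compared between pools for one probe and never between probes. A probe was kept if all arrays of one genotype or the other read it well above background, a gene was read by its brightest kept probe, and 18336 genes were tested with limma, two-sided, with Benjamini-Hochberg adjustment over all of them and a threshold of 0.05. Between 59.2% and 66.0% of spots were well above background, and the 75th percentile of the processed signal ran from 2112 to 5104 between arrays, lowest on the second array of WT pool 1. The targeted gene, Ctcf, had levels of 0.18, 0.16 and 0.05 in CKO pools 1 to 3, against 0.83, 1.12 and 1.04 in the WT pools. All CKO pools were below all WT pools (difference -0.87, SE 0.13). The limma adjusted p of Ctcf was 0.143, and 0.0292 with the pool number as a block.

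Of the 34 genes, 24 passed the filter on dim probes: 3 of 4 stem and progenitor genes, 7 of 9 immature neuron genes and 14 of 21 cell cycle genes. Of the 55 probes, 33 passed, 13 were not well above background on any array, and 9 were above it on some arrays only. The 10 genes without a test were the progenitor gene Eomes, the immature neuron genes Igfbpl1 and Draxin, and the cell cycle genes Ccnb1, Cdk1, Top2a, Pbk, Cenpf, Aurkb and Bub1. A bulk measurement does not tell fewer cells of a type from less RNA per cell, and this holds for every gene below.

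None of the 24 tested genes passed the threshold in either direction (0 of 24, against 0.0273% of all genes called higher and 0% called lower). At an unadjusted p under 0.05, 1 was higher and 2 were lower in CKO pools, that is 3 of 24; over all genes 2.92% were higher and 2.56% lower, or 5.48% in either direction. A fit with pool number as a block called 0.562% of all genes and again 0 of the 24, and the same numbers, 1 higher and 2 lower, had an unadjusted p under 0.05 (8.34% over all genes). The median difference was -0.08 over the 24 genes and 0.00 over all genes; 9 of the 24 were above 0, and over all genes 49.4% were. For 21 of the 24 the 95% interval of the difference held 0, and the half-width of these intervals ran from 0.26 to 0.74 over the 24 genes, with a median of 0.43. The intervals are not adjusted for the number of genes, so at this number of pools passing the threshold took a difference larger than the half-width. Tubb3, Sox4 and Mcm2 exceeded their half-widths and were not called. In 20 of the 24 the measured difference was smaller than 0.25 in absolute value.

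**Figure D1:**
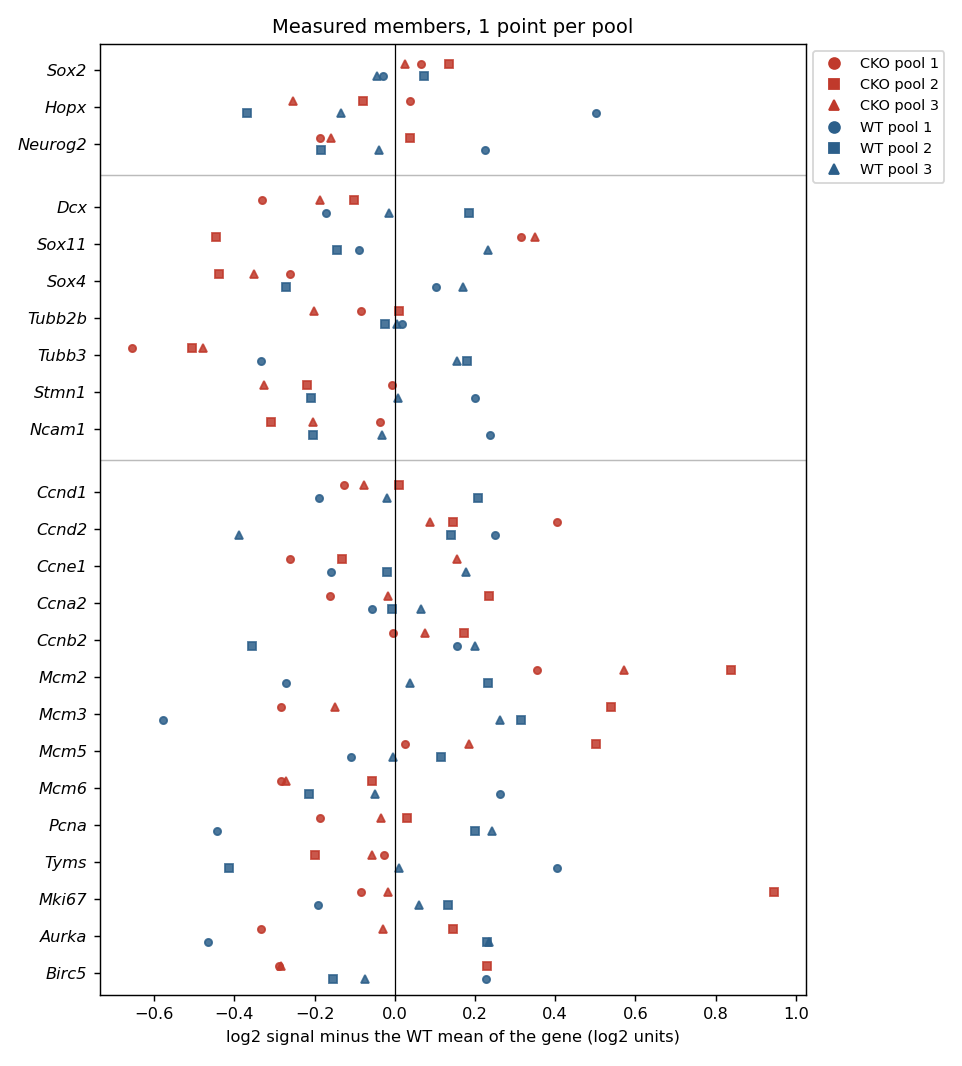
Each row is 1 of the 24 measured genes and each point is 1 pool, as the log2 level minus the WT mean of that gene (log2 units), with CKO pools above WT pools within a row and the pool number given by the shape; grey lines part the stem cell, immature neuron and cell cycle genes. The points of the genotypes are separate only for Tubb3 (CKO below WT) and Mcm2 (CKO above WT). Over all genes tested, 11.3% had separate genotypes, in either direction.

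**Figure D2:**
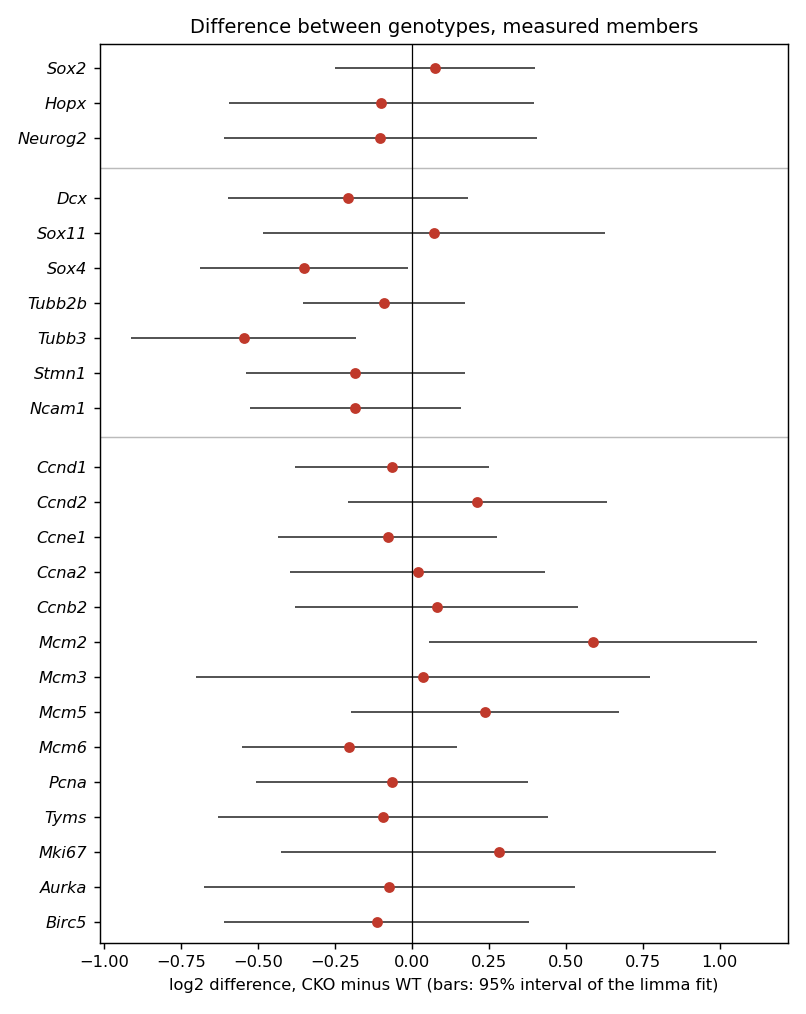
Points are log2 differences, CKO minus WT, of the 24 measured genes (3 pools per genotype), and bars are 95% intervals of the limma fit, not adjusted for the number of genes. Only the intervals of Tubb3, Sox4 and Mcm2 lie away from 0.

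In the stem and progenitor class, the pools of both genotypes overlapped for all 3 measured genes. Sox2, a transcription factor that maintains neural stem cells and is also made by astrocytes, had levels of -1.13, -1.06 and -1.17 in CKO pools 1 to 3 and -1.22, -1.12 and -1.24 in WT pools. CKO stood above WT in each of the 3 same-numbered pairs, but by only 0.08 on average (SE 0.14, limma adjusted p 0.999). Hopx, an atypical homeodomain protein of quiescent stem cells that is also expressed in astrocytes, had levels of 3.61, 3.49 and 3.32 in CKO pools and 4.08, 3.21 and 3.44 in WT pools. WT pool 1 was highest and WT pool 2 lowest, so that the CKO pools lay inside the WT range (difference -0.10, SE 0.22). Neurog2, a proneural transcription factor, was dim, at -4.73, -4.51 and -4.71 in CKO pools and -4.32, -4.73 and -4.59 in WT pools, although well above background on all 8 arrays. Its difference was -0.10 (SE 0.22). Eomes, the transcription factor that defines intermediate progenitors, was well above background on 1 of 4 CKO and 1 of 4 WT arrays with one probe and on none with the other, so no comparison was made. The class median was -0.10, and it was -0.36 within slide 2 and 0.00 within slide 1. Its direction rests on WT pool 1: without that pool the median was 0.06 with 3 of 3 genes above 0, and without only its second array it was 0.02.

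A list of 20 other stem and progenitor genes gave 17 measured genes, of which 9 were above and 8 below 0 with a median of 0.00, and 0 passed the test. The 2 of smallest unadjusted p were Hes5 and Vim. Hes5, a Notch effector that holds progenitors undifferentiated, had levels of 0.54, 0.73 and 0.91 in CKO pools and 1.04, 1.37 and 1.65 in WT pools, which do not overlap (difference -0.63, SE 0.18, limma adjusted p 0.57, and 0.089 with the block). Vim, an intermediate filament of radial glia that is also found in reactive astrocytes and vessel cells, had levels of 1.11, 1.92 and 1.20 in CKO pools and 0.59, 1.20 and 1.00 in WT pools (difference 0.48, SE 0.24, limma adjusted p 0.979). Astrocytes share many of these genes. Of 9 astrocyte markers, 3 were above 0 and 6 below, with a median of -0.04, and their summed linear level (in units of the array's 75th percentile) ran from 101.5 to 118.0 in CKO pools and from 102.5 to 127.0 in WT pools. Gfap, the intermediate filament that reactive astrocytes raise, had levels of 2.56, 3.19 and 2.77 in CKO pools and 1.94, 2.37 and 2.16 in WT pools, with every CKO value above every WT value. Its difference was 0.68 (SE 0.18), with a limma adjusted p of 0.503, and 0.0460 with the block. Gfap was the 1 of the 9 markers that the block fit called, against 0.562% of all genes. S100b had the lowest difference of the 9, at -0.22. The part of astrocytes in the values of Vim, Hes5, Hopx and Sox2 was not tested.

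In the immature neuron class, 6 of the 7 measured genes had a difference below 0, with a median of -0.18 over the class and 0.00 over all genes. The median was -0.083 without WT pool 1. When the kept probes of a gene were averaged, it was -0.057 with 3 of 7 genes above 0. None of the 7 passed the test, with or without the block. In 5 of the 7 (Dcx, Sox4, Tubb3, Stmn1 and Ncam1) CKO lay below WT in all 3 same-numbered pairs, which 14% of all genes did. For Sox4 and Ncam1 this held with the brightest probe only. Both other Ncam1 probes and the last Sox4 probe had CKO above WT in all 3 pairs. Several genes of the class are not particular to new neurons: Tubb3, Tubb2b, Stmn1 and Ncam1 are expressed in mature neurons as well, and Dcx and Sox11 are the more restricted ones.

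Tubb3, the neuron-specific class III β-tubulin, showed the lowest difference of the 24 genes. Its levels were 1.86, 2.01 and 2.04 in CKO pools 1 to 3, against 2.18, 2.69 and 2.67 in WT pools. Every CKO value was under every WT value, a pattern that 5.63% of all genes had. The CKO mean was 1.97 ± 0.10 and the WT mean 2.51 ± 0.29 (SD, n = 3 each), a difference of -0.55 (SE 0.16, 95% interval -0.91 to -0.18). The limma adjusted p was 0.576, and 0.140 with the block. Without the second array of WT pool 1, the dimmest of the 8, the difference was -0.61 with a limma adjusted p of 0.0499; that setting called 1 of the 24 genes lower and 0 higher, against 0.333% and 0.387% of all genes (0.72% in either direction). When only first arrays were used, 0 of the 24 were called, against 0.371% of all genes higher and 0.316% lower (0.687% in either direction), and the adjusted p of Tubb3 was 0.0549. Limma's array weights called 2 of the 24 lower and 2 higher, against 8.36% and 8.96% of all genes (17.3% in either direction), and put Tubb3 at -0.69 with an adjusted p of 0.00409. Within slide 1 the difference was -0.53 and within slide 2 it was -0.45. On the arrays themselves, WT pool 1 read 2.38 on its first array and 1.98 on its second, and CKO pool 1 read 2.00 and 1.71, so both second arrays were the lower ones.

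Sox4, an SoxC transcription factor of neuronal differentiation, had levels of 1.07, 0.89 and 0.98 in CKO pools and 1.43, 1.06 and 1.50 in WT pools with its brightest probe. WT pool 2 was inside the CKO range, and the other WT pools were above it (difference -0.35, SE 0.15, limma adjusted p 0.898). The 2 other probes gave the opposite sign. The second probe read -3.70, -3.84 and -3.94 in CKO pools and -3.59, -3.88 and -4.33 in WT pools, a difference of 0.11. The last probe read -1.22, -1.53 and -1.82 in CKO pools and -1.68, -1.78 and -3.19 in WT pools, a difference of 0.69, with WT pool 3 far below the other pools. Averaged over its 3 probes, Sox4 had a difference of 0.15, so its direction rests on which probe is read. With array weights the brightest probe passed the threshold (-0.48, limma adjusted p 0.0177). That setting called 17.3% of all genes. It gave WT pool 3, the highest pool for this probe, a weight of 4.31, against 0.157 for WT pool 1.

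Dcx, which encodes the microtubule-binding protein used to count neuroblasts, was read by 1 of its 3 probes. The other 2 were not well above background on any array. The reading probe had levels of -1.89, -1.66 and -1.75 in CKO pools and -1.73, -1.37 and -1.57 in WT pools. CKO lay below WT by 0.16, 0.29 and 0.17 in pairs 1 to 3, while the genotypes overlapped, since levels also differed with the pool number: in both genotypes pool 2 was highest, then pool 3, then pool 1. The difference was -0.21 (SE 0.17, limma adjusted p 0.999, and 0.845 with the block), and it kept its sign in 24 of 24 alternative settings. Those settings reuse the same pools, and Tubb3, Stmn1 and Tubb2b kept their sign in 24 of 24 as well. The arrays of a pool differed little for this probe, at -1.90 and -1.88 for CKO pool 1 and at -1.69 and -1.77 for WT pool 1.

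Of the remaining immature neuron genes, Stmn1 (stathmin, which destabilises microtubules) had levels of 5.32, 5.11 and 5.0 in CKO pools and 5.53, 5.12 and 5.33 in WT pools. Its difference was -0.18 (SE 0.16), and both of its probes were below 0. Ncam1, the adhesion molecule whose polysialylated form marks young neurons, had levels of 4.22, 3.95 and 4.05 in CKO pools and 4.50, 4.05 and 4.23 in WT pools. The brightest probe gave -0.18 (SE 0.15), and the other 2 lay above 0. Tubb2b, a β-tubulin of developing neurons, had the narrowest interval of the 24 genes, with levels of 3.85, 3.94 and 3.73 in CKO pools and 3.95, 3.91 and 3.94 in WT pools (difference -0.09, SE 0.12). Sox11, the other SoxC factor of neuroblasts, was the one member of the class above 0 (0.07, SE 0.24), with levels of -1.11, -1.87 and -1.07 in CKO pools and -1.51, -1.57 and -1.19 in WT pools. CKO pool 2 was the lowest of the 6 for both Sox11 probes. Igfbpl1, a secreted protein of neuroblasts, was well above background on 3 of 4 CKO and 2 of 4 WT arrays. Draxin, a guidance protein, reached it on 1 WT array with one probe and on none with the other.

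**Figure D3:**
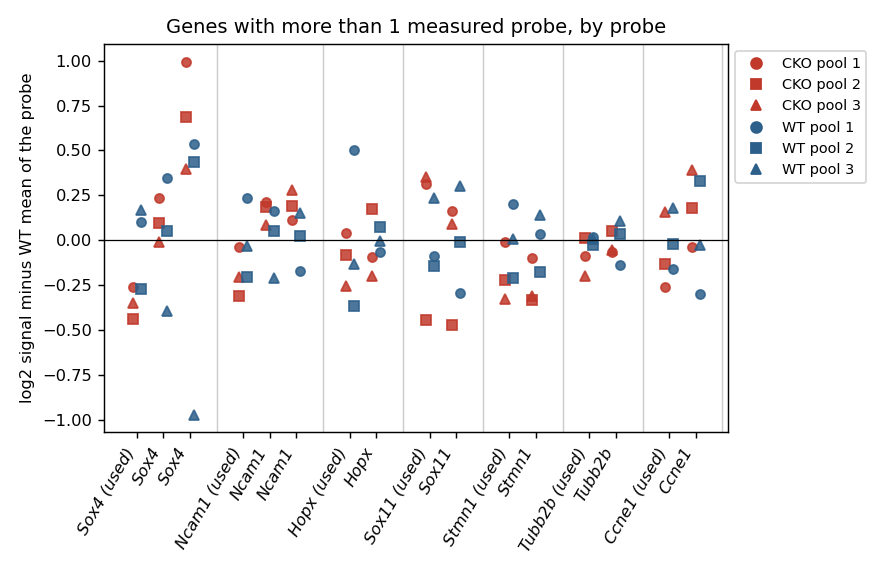
Each column is 1 probe of the 7 genes with more than 1 measured probe, and points are pools, as the log2 level minus the WT mean of that probe (CKO left of WT within a column; "used" marks the probe read for the gene). The probes of Sox4, Ncam1, Sox11 and Ccne1 differ in the sign of the difference, and those of Hopx, Stmn1 and Tubb2b do not.

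A list of 22 other immature neuron genes gave 20 measured genes, 10 above and 10 below 0, with a median of 0.01 and 0 that passed the test with or without the block. Tubb6, a β-tubulin isotype found in many non-neuronal cells, stood furthest up, with levels of -1.66, -2.19 and -2.09 in CKO pools and -2.81, -2.96 and -3.05 in WT pools. The genotypes did not overlap (difference 0.96, SE 0.20), with a limma adjusted p of 0.249, and 0.0596 with the block. Doc2b, a calcium sensor of vesicle release, had levels of 1.95, 1.44 and 1.96 in CKO pools and 2.76, 1.79 and 2.06 in WT pools (difference -0.42, SE 0.26). Markers of mature dentate granule neurons, the cells that the neuroblasts become, were below 0 in 4 of 5 measured genes (7 listed) with a median of -0.42. Their summed linear level ran from 5.03 to 5.15 in CKO pools and from 6.57 to 8.09 in WT pools, with no overlap, and C1ql2 had the lowest difference, -1.10 (SE 0.30, limma adjusted p 0.476, and 0.0466 with the block). The 1 granule neuron marker above 0 was Pdzd2, at 0.47. For 7 pyramidal neuron markers, 5 were below 0 with a median of -0.09, and the summed level ran from 28.6 to 33.9 in CKO pools and from 33.1 to 36.2 in WT pools. Without WT pool 1 the median was 0.01. Wfs1, a marker of CA1 pyramidal neurons, had levels of 1.68, 1.70 and 1.79 in CKO pools and 2.46, 2.74 and 2.71 in WT pools, without overlap. Its difference was -0.91 (SE 0.12), with a limma adjusted p of 0.118, and 0.0162 with the block. C1ql2, Gfap and Wfs1 lie outside the rule for named genes and are given because the block fit called them. Each was the 1 gene of its marker list so called, against 0.562% of all genes. The part of these neurons in the values of Tubb3, Stmn1 and Ncam1 was not tested.

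In the cell cycle class, 7 of the 14 measured genes were above 0 and 7 below, with a median of -0.02, and none passed the test. Leaving out one pool at a time, the median ran from -0.07 to 0.08, so it has no settled direction. The cyclins drive the steps of the cycle in turn, from the D types in G1 to the B types in mitosis. Ccnd1, cyclin D1, had levels of 0.86, 1.00 and 0.91 in CKO pools and 0.80, 1.20 and 0.97 in WT pools (difference -0.06, SE 0.14). Ccnd2, the D-type cyclin that adult hippocampal neurogenesis depends on in mice, had levels of 2.88, 2.62 and 2.56 in CKO pools and 2.72, 2.61 and 2.08 in WT pools. WT pool 3 was the low one, and without it the difference of 0.21 (SE 0.18) was 0.02. Array weights, which gave WT pool 3 a weight of 4.31 against 0.157 for WT pool 1, put Ccnd2 at 0.53 with a limma adjusted p of 0.0246. That setting called 17.3% of all genes. Ccne1, cyclin E1, had a difference of -0.08 (SE 0.16) with one probe, and its other probe lay above 0. Ccna2 and Ccnb2, the S and G2/M cyclins, had differences of 0.02 (SE 0.18) and 0.08 (SE 0.20). Ccnb1, cyclin B1, was well above background on 3 of 4 CKO and 3 of 4 WT arrays with one probe and on none with the others. The mitotic kinase Cdk1 did not reach background on any array with any of 3 probes, 2 of which share a run of 41 bases.

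Among the replication genes, all 6 were measured, 3 above and 3 below 0. Mcm2, a subunit of the replicative helicase, showed the largest positive difference of the 24. Its levels were -3.80, -3.32 and -3.58 in CKO pools, against -4.42, -3.92 and -4.12 in WT pools. Every CKO value exceeded every WT value, a pattern that 5.7% of all genes had, and CKO exceeded WT by 0.63, 0.60 and 0.53 in pairs 1 to 3. The difference was 0.59 (SE 0.23, 95% interval 0.05 to 1.12) with a limma adjusted p of 0.851, and 0.430 with the block. The probe was dim: it was well above background on 4 of 4 CKO and 3 of 4 WT arrays, and the second array of WT pool 1 read -4.97, against -3.88 on the first, so the value of WT pool 1 is in part a bound. Mcm2 passed the filter only through the CKO arrays, the genotype in which it was higher. Within slide 1 the difference was 0.44, within slide 2 it was 0.75, and with array weights it was 0.54 (limma adjusted p 0.0457). Array weights called 17.3% of all genes.

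The other helicase subunits did not follow Mcm2 in size. Mcm3 had levels of -3.86, -3.04 and -3.73 in CKO pools and -4.16, -3.26 and -3.31 in WT pools (difference 0.03, SE 0.32). Mcm5 had levels of -2.32, -1.84 and -2.16 in CKO pools and -2.45, -2.23 and -2.35 in WT pools (difference 0.24, SE 0.19), with CKO above WT in each pair. Mcm6 had levels of 1.12, 1.35 and 1.13 in CKO pools and 1.67, 1.19 and 1.36 in WT pools (difference -0.20, SE 0.15). Pcna, the sliding clamp of DNA polymerase, had a difference of -0.06 (SE 0.19), and Tyms, thymidylate synthase, had one of -0.09 (SE 0.23). A list of 20 other replication genes gave 16 measured, 7 above and 9 below 0, with a median of -0.02 and none called. Prim1, the catalytic primase subunit, had levels of -1.74, -1.71 and -1.98 in CKO pools and -1.33, -1.57 and -1.32 in WT pools (difference -0.41, SE 0.17). Rrm2, a ribonucleotide reductase subunit, had levels of -2.04, -1.68 and -2.15 in CKO pools and -2.36, -2.51 and -2.27 in WT pools (difference 0.42, SE 0.19). These 2 had the smallest unadjusted p of their list, with separate genotypes and opposite signs. Of the 16 measured genes of the list these 2 had separate genotypes, and of all genes 11.3% did, in either direction.

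Of the 8 mitosis and proliferation genes, 3 were measured. Mki67, the gene of the proliferation antigen Ki-67, had levels of -4.52, -3.49 and -4.45 in CKO pools and -4.63, -4.30 and -4.37 in WT pools. CKO pool 2 stood alone, and the other CKO pools lay inside the WT range. The difference was 0.28 (SE 0.31), and without CKO pool 2 it was -0.05. Aurka, a spindle kinase, had a difference of -0.07 (SE 0.26), and Birc5, survivin of the chromosomal passenger complex, had one of -0.11 (SE 0.22). Top2a, Cenpf, Aurkb and Bub1, which act on chromosomes and kinetochores in mitosis, were not well above background on any array, and Pbk, a mitotic kinase, was so on 2 of 4 CKO and 2 of 4 WT arrays.

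CKO pool 2 was the highest pool for many of the proliferation genes, a pattern noticed in these values and given as a description. Of 30 cell cycle probes, 21 were well above background on at least 1 array, and CKO pool 2 was the highest of the 6 pools for 11 of them, from 8 of 16 genes. Over all 27100 probes above background on at least 1 array it was highest for 11.9%. Of the 11 probes, 1 Birc5 probe was well above background only on the array of CKO pool 2, so it was counted through that pool alone. Both Mki67 probes were highest in CKO pool 2: the second probe read -5.09, -3.97 and -4.95 in CKO pools and -4.85, -4.78 and -5.17 in WT pools. Ccnb1 read -4.79, -3.82 and -4.72 in CKO pools and -4.45, -4.92 and -4.70 in WT pools with its brightest probe. Pbk read -5.37, -4.33 and -5.60 in CKO pools and -5.38, -5.21 and -5.74 in WT pools. For these dim probes the arrays on which they were not well above background give a bound rather than a level. The mean of the 3 tested mitosis genes, relative to the WT means, was -0.24, 0.44 and -0.11 in CKO pools 1 to 3 and -0.14, 0.07 and 0.07 in WT pools. Pool 2 is 3 females in both genotypes. Among the WT pools, WT pool 2 was highest for 7 of these 11 probes, WT pool 1 for 3 and WT pool 3 for 1. The 11 include more than 1 probe of Birc5 and of Mki67, and the matching share over all probes was not counted. CKO pool 2 was read on 1 array, the brightest of the 8 by the 75th percentile of the processed signal (5104). That array also had the largest share of spots well above background (66.0%). The part of sex, age, pool or array brightness in the pattern of CKO pool 2 was not tested.

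Markers of other cells that divide in adult tissue, and of tissue next to the hippocampus, are given beside these values. CKO pool 2 was the highest pool for 6 of 10 microglia markers and for 6 of 9 choroid plexus markers, against 11.3% of all genes. It was so for 1 of 7 oligodendrocyte precursor markers, 3 of 9 astrocyte markers and 1 of 8 endothelial and mural markers. Of 16 other replication genes it was highest for 6, and of 15 other mitosis genes for 5. Of 13 other cyclins, Cdks and E2f genes it was highest for 1. The mean of the 10 microglia markers, relative to the WT means, was 0.19, 0.42 and -0.08 in CKO pools and 0.26, -0.16 and -0.10 in WT pools. Their summed linear level ran from 69.9 to 91.0 in CKO pools and from 59.7 to 97.5 in WT pools, with 6 of 10 genes above 0. The mean of 7 oligodendrocyte precursor markers was -0.06, 0.14 and 0.07 in CKO pools and -0.05, 0.04 and 0.01 in WT pools. Their summed level ran from 9.77 to 11.3 in CKO pools and from 9.80 to 10.6 in WT pools. All 9 choroid plexus markers were above 0, with summed levels of 69.7 to 99.4 in CKO pools and 32.4 to 89.1 in WT pools, where WT pool 1 was lowest. Choroid plexus and ependymal tissue adjoin the hippocampus, and 6 of 6 ependymal markers were above 0, with a median of 0.29. These counts rest in part on WT pool 1: without it, 8 of 9 choroid plexus markers were above 0 with a median of 0.25, against 0.87 with it, and 3 of 6 ependymal markers were above 0 with a median of 0.03. The part of any of these cells in the values of the cell cycle genes was not tested.

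**Figure D4:**
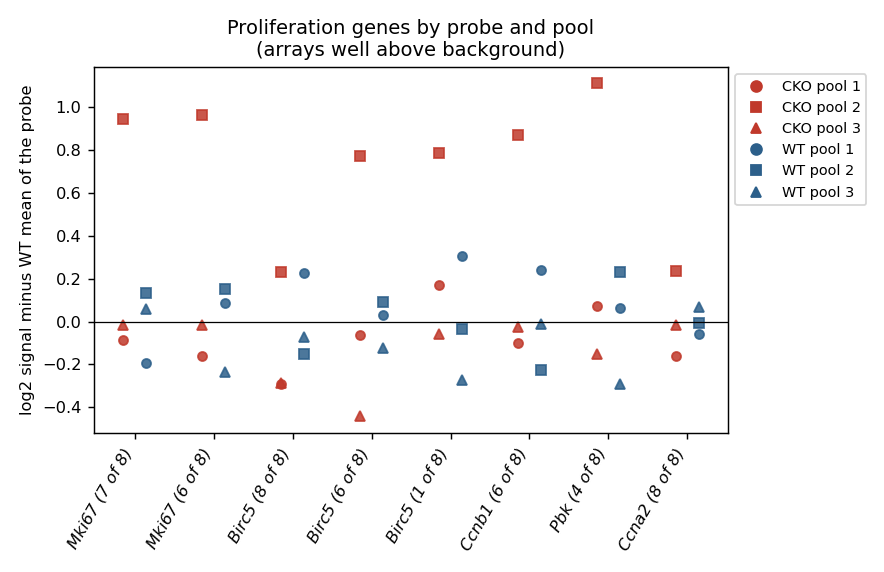
Each column is 1 probe of 5 proliferation genes with the number of its 8 arrays well above background in brackets, and points are pools, as the log2 level minus the WT mean of that probe (CKO left of WT within a column). CKO pool 2 (red squares) is the highest pool in each column, though about level with WT pool 1 for the first Birc5 probe. The Birc5 probe marked 1 of 8 was well above background only on the array of CKO pool 2. The genes were chosen for this plot after their values were seen.

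Lists of other cell cycle genes gave no call without the block. Of 26 other mitosis genes 15 were measured, 9 above and 6 below 0, with a median of 0.08. Cenpa, the centromere histone, had levels of -0.29, -2.40 and -1.79 in CKO pools and -2.59, -2.55 and -2.68 in WT pools, with CKO pool 1 far above the other pools (difference 1.11, SE 0.46). Mad2l1, a spindle checkpoint protein, had levels of -1.64, -1.32 and -1.66 in CKO pools and -1.47, -0.51 and -1.17 in WT pools (difference -0.49, SE 0.25). Of 16 other cyclins, Cdks and E2f genes 13 were measured, 8 above and 5 below 0, with a median of 0.01. Cdk2, the partner of cyclins E and A, had a difference of 0.28 (SE 0.20), and the transcription factor E2f3 one of -0.17 (SE 0.15).

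Among 12 Cdk inhibitors and antiproliferative genes, 11 were measured, 6 above and 5 below 0, with a median of 0.27. That median was 0.08 without WT pool 1, 0.10 without its second array and 0.0039 with array weights. With the block, 1 was called higher and 1 lower, against 0.562% of all genes in either direction. Cdkn1a, which encodes the p53 target and Cdk inhibitor p21, had levels of -0.74, -2.10 and -0.82 in CKO pools and -2.53, -2.77 and -2.70 in WT pools. The genotypes did not overlap (difference 1.45, SE 0.34), with a limma adjusted p of 0.327, and 0.0292 with the block. Cdkn1a lies outside the rule for named genes and is given because it is the gene behind that call. Rprm, which encodes reprimo, a p53 target that halts cells in G2, had levels of 0.36, 0.85 and 0.52 in CKO pools and 1.46, 1.90 and 1.36 in WT pools (difference -0.997, SE 0.19). Its limma adjusted p was 0.185, and 0.0160 with the block. Ccng1, cyclin G1 and another p53 target, had levels of 1.28, 1.43 and 1.44 in CKO pools and 0.76, 0.77 and 0.83 in WT pools (difference 0.59, SE 0.12, limma adjusted p 0.192, and 0.103 with the block). All 3 genes are expressed in postmitotic neurons too.

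The order of pools 1, 2 and 3 was the same in CKO as in WT for 12 of 24 genes (50%), and for 31.7% of all genes. In the lists of other genes it was 58.8% for stem and progenitor, 40% for immature neuron and 45.5% for Cdk inhibitor genes. For other replication genes it was 31.2%, for other cyclins, Cdks and E2f genes 23.1%, and for other mitosis genes 6.67%. The spread between the 2 arrays of one pool gives the technical error. Over the 20 genes whose probe was well above background on all 8 arrays, the median absolute difference was 0.22 between the arrays of CKO pool 1 and 0.40 between those of WT pool 1. Tyms differed most in both pools, by 0.74 in CKO pool 1 and by 1.40 in WT pool 1. For Mcm2, Mcm3, Mki67 and Aurka, 1 WT array was not well above background, and their differences between arrays are bounds. These genes passed the filter only through the CKO arrays.

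Promoter sequence was available for 25 of the 34 genes, as the 250 bases before the start in RefSeq (GRCm38.p6). Cell cycle promoters are known for CCAAT boxes, E2F sites and cell cycle homology regions, so these were searched on both strands. The CCAAT box, CCAAT, was in 20 of 25, and in 37.5% of 27025 genes. By class it was in 3 of 4 stem and progenitor, 4 of 5 immature neuron and 13 of 16 cell cycle genes, so the share was not particular to cell cycle genes. The homology region core, TTTGAA, was in 5 of 16 cell cycle genes (Ccnb2, Cdk1, Mcm2, Mki67 and Top2a), in 1 of 5 immature neuron genes (Sox11) and in 18.3% of all genes. An E2F site spelled TTTGGCGC was in Hopx, Mcm5 and Mcm6, and in 0.485% of all genes. Pools did not overlap between genotypes for 2 of the measured genes, and for 11.3% of all genes tested. The promoters of these 2 are shown, with matches to the motifs above in capitals on the strand of the gene.
Mcm2, chr6:88898781-88899030, minus strand: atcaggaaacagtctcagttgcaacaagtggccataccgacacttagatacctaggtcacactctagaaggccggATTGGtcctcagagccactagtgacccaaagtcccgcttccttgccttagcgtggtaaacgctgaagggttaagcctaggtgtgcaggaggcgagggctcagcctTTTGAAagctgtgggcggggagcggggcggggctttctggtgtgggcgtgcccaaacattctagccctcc
Tubb3, chr8:123411303-123411552, plus strand: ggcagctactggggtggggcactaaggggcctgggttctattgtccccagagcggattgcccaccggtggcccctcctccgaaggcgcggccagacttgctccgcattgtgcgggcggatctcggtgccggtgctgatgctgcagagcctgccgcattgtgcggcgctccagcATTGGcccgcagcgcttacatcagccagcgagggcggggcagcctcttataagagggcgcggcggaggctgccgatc
ATTGG is the CCAAT box read on the other strand. Both promoters hold it once, and that of Mcm2 also holds TTTGAA. A match is a description of the letters and not a site.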

How the data were processed

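Hippocampal RNA of 3 CKO and 3 WT pools was hybridised in the Cy5 channel of 8 Agilent arrays on 2 slides, per the labels. The deposited spot intensity (processed signal) had its background subtracted and a spatial trend removed on each array by Agilent Feature Extraction 11.5.1.1, with surrogates for low values, per the file headers; the deposited flags were used as given. The authors' value table holds linear intensities; how its arrays were put on one scale is not stated in the labels; it served as an alternative. For each array, the deposited processed signal was divided by its 75th percentile over non-control spots and put on a log2 scale; outlier spots were left out, spots of a probe were averaged, then the arrays of a pool. Of 39429 probes, 23648 were kept and 18336 genes tested with limma 3.58.1 (lmFit, eBayes with trend) in R 4.3.3; the script was tested on simulated data. An exact test of 3 against 3 cannot give a p under 0.1. Pools held separate mice, per the labels, so p-values measure the spread between pools. Of the arrays of pool 1, the first shared slide 1 with pool 2 and the second shared slide 2 with pool 3. Same-numbered pools deviated together (r 0.55, 0.33 and 0.13 across genes; highest of differently numbered pools 0.12) and have the same sex and age makeup, so pool number was also fitted as a block. The genes and lists were chosen with earlier results of these data known. The text names Ctcf, the 34 genes, and the 2 genes of smallest unadjusted p in each list; others were chosen after their values were seen. All 55 probes keep their names in RefSeq; coordinates of probes are not given, since the headers name mm9 and the gene tables GRCm38.p6.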

Additional observations from a re-analysis of the deposited data

How the results depend on the processing

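Of the 24 genes, 0 passed the threshold in all settings but 3. Without the second array of WT pool 1, 1 was called lower (Tubb3), also 1 when that setting was combined with the pool number as a replicate block, a combination added after the data were seen. Array weights called 2 higher (Mcm2, Ccnd2) and 2 lower (Tubb3, Sox4). Over all genes, 5 were called higher and 0 lower, and the counts were 72 and 31 with the replicate block, 68 and 58 with the first array of each pool (44 and 27 with the block, added after the data were seen), 71 and 61 without the second array of WT pool 1 (43 and 22 with the block), and 1642 and 1532 with array weights. The authors' value table gave 3 higher, slide 1 alone 3 lower, and slide 2 alone 0 higher. Leaving out one pool at a time gave 0 to 15 higher and 0 to 6 lower, with the most without WT pool 1. The median of the immature neuron genes was -0.18, and -0.057 when the probes of a gene were averaged; leaving out one pool at a time it ran from -0.29 to -0.083. The stem and progenitor median was -0.10, and -0.36 within slide 2; it was 0.022 without the second array of WT pool 1 and 0.033 with array weights, and leaving out one pool at a time it ran from -0.20 to 0.061, above 0 only without WT pool 1. The cell cycle median was -0.023 and ran from -0.071 to 0.083. The cause of these shifts was not tested. The replicate block changed no call of the 24 genes. Dim probes limit the mitosis genes: 5 of 8 had no measured probe, and 3 pools per genotype on 8 arrays limit the precision of all differences.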
